A study of Homo sapiens with 15 samples.

Results

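The 10 genes examined here are regulators and targets of the cellular response to low oxygen, taken by symbol as HIF1A, EPAS1, ARNT, VHL, EGLN1, EGLN3, VEGFA, ADM, CA12 and BNIP3. Of these, 9 had a row among the 17272 genes of the expression table. ADM had none and was not analysed here. RNA was sequenced from LNCaP cells, an androgen-sensitive human prostate cancer line grown from a lymph node metastasis. All cells were kept for 2 days in medium with charcoal-stripped serum, which is poor in steroids, and all then received the synthetic androgen R1881 at 1 nM. In the R1881 group (10 libraries) the vehicle DMSO was added, and in the R1881 + enzalutamide group (5 libraries) the androgen receptor inhibitor enzalutamide was added at 2 µM. Cells were harvested after 22 h. No library was labelled as grown at low oxygen or without R1881, so the comparison is that of androgen signalling with and without the inhibitor in a single cell line.

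Cells sense oxygen through the hypoxia-inducible factors (HIF). When oxygen is present, the prolyl hydroxylases encoded by EGLN1 and EGLN3 modify the alpha subunits HIF1A and EPAS1 (HIF-2 alpha), and the VHL ubiquitin ligase then marks them for destruction. When oxygen is scarce, the alpha subunits persist, pair with ARNT and switch on genes for blood vessel growth, glucose use, pH balance and removal of mitochondria. Since this control acts largely on protein, the mRNA levels given below do not measure HIF activity.

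Expression is given as deposited, in values that the methods term CPM. They are counts scaled per library by a rule that no source used here gives. The libraries held 15830745 to 24316740 reads on genes in the R1881 group and 21188661 to 25416052 in the other group. The treatment was visible in the androgen-induced genes KLK2, KLK3, FKBP5 and TMPRSS2, with log2 fold changes between -4.99 for FKBP5 and -3.55 for KLK3. All 9 luminal prostate markers listed had a row, of which 6 were lower and 3 higher with enzalutamide. Their summed level was 7906 to 9192 CPM with R1881 and 3673 to 3798 CPM with R1881 + enzalutamide, and the keratins KRT8 and KRT18 had log2 fold changes of -2.18 and -2.05. Several of these markers are androgen-induced genes. Of the markers of other cell types, none of 3 leukocyte, 1 of 3 endothelial (VWF), 1 of 4 fibroblast (COL1A1) and 1 of 3 basal markers (KRT14) had a row, and their values did not exceed 12.3 CPM in any library. VWF rose from a range of 2.08 to 2.84 CPM to one of 2.84 to 3.35 CPM under enzalutamide, COL1A1 from 4.38 to 8.43 CPM to 7.45 to 12.3 CPM, and KRT14 fell from 0.706 to 1.44 CPM to at most 0.279 CPM. The part of such markers in the results was not tested. The labels number the R1881 libraries in 2 series, 51 to 55 and 71 to 75, and those with enzalutamide 81 to 85. No source used here explains the numbers, and treatment and series cannot be told apart. For this reason fold changes are also given against each R1881 series. Within each group, the deviation of a library from its group mean also depended on gene GC content to a varying degree (rank correlation over genes from -0.63 to 0.73 with R1881 and from -0.49 to 0.70 with R1881 + enzalutamide). The libraries with the highest rho were R1881 replicates 5 and 6 and R1881 + enzalutamide replicate 2.

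All 9 genes with a row differed between the treatments, 5 being higher and 4 lower with enzalutamide (adjusted p under 0.05 from limma on log2(CPM + 0.5), Benjamini-Hochberg over 17046 genes). This count has to be read against the whole transcriptome, of which 62.5% passed the same threshold, 29.8% upward and 32.7% downward. HIF1A, VEGFA and BNIP3 were lower, and EGLN3, CA12 and ARNT were higher, with every R1881 + enzalutamide library outside the range of the R1881 libraries. Such a separation was seen for 37.2% of all genes tested, 17.1% upward and 20.1% downward. VHL and EGLN1 were higher and EPAS1 was lower by smaller amounts, with ranges that overlapped. The genes differed in the size of their change. The absolute log2 fold change of EGLN3 was reached by 4.30% of all genes, that of VEGFA by 9.09% and that of HIF1A by 10.1%, whereas that of VHL was reached by 59.7% and that of EGLN1 by 67.7%. Only EGLN3 changed by at least 2-fold, as did 7.45% of all genes. Replicates were described as biological in the methods, and in bulk RNA a change in the cells present and a change of RNA per cell cannot be told apart.

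**Figure D1:**
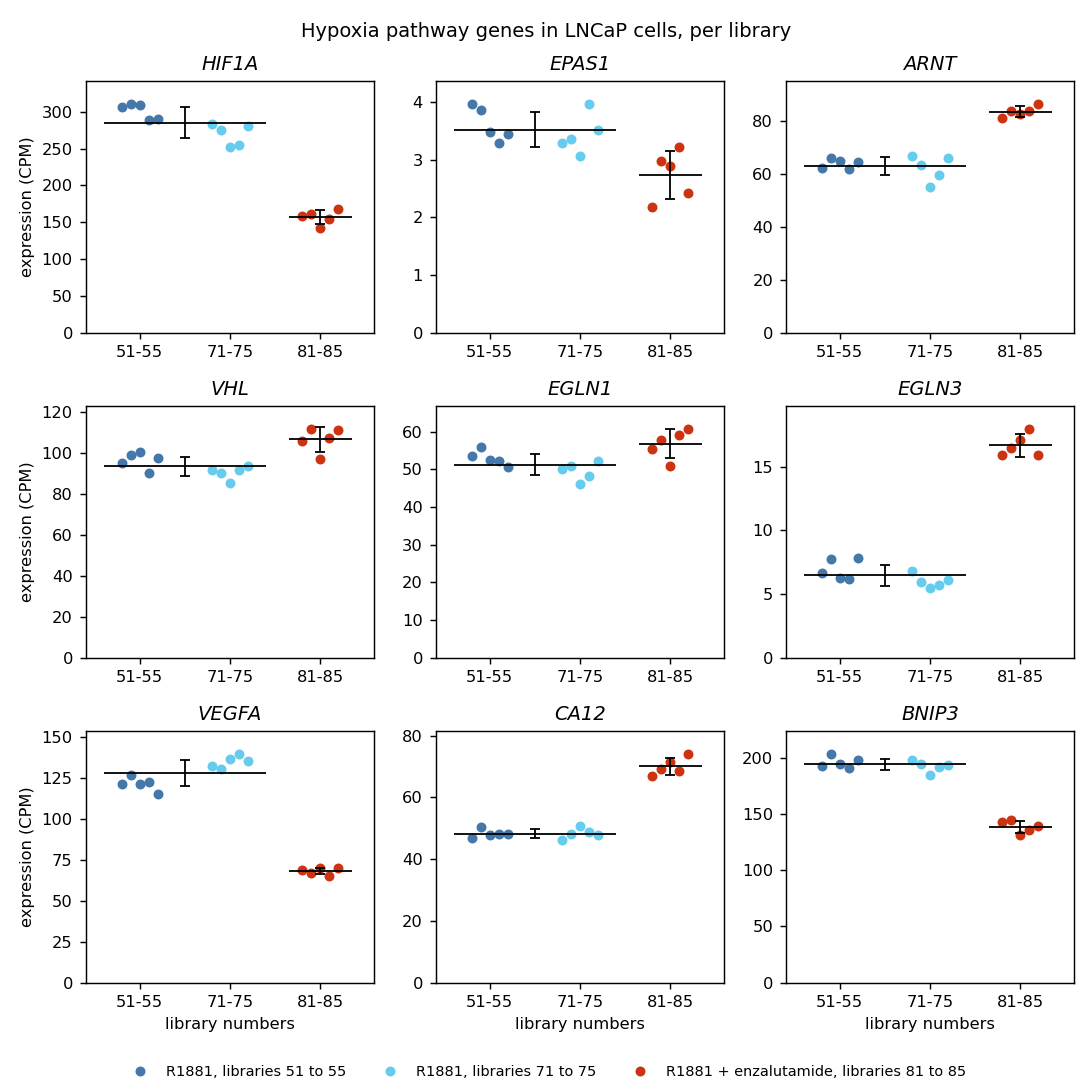
Expression of the 9 genes in CPM (vertical axes from 0) in every library, grouped by library number. Horizontal lines are the means of the 10 R1881 and the 5 R1881 + enzalutamide libraries, and vertical bars are ± 1 SD. The R1881 + enzalutamide points lie apart from the R1881 points for HIF1A, ARNT, EGLN3, VEGFA, CA12 and BNIP3, and overlap them for EPAS1, VHL and EGLN1.

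The promoters of 4 of these genes are shown because HIF1A and BNIP3 fell and EGLN3 and CA12 rose. Each is the 250 bases before the transcription start given by RefSeq on GRCh38.p14, written 5′ to 3′ on the gene's own strand, and capitals mark the core letters to which HIF binds, ACGTG or GCGTG, on either strand.
HIF1A promoter, chr14:61695263-61695512, plus strand: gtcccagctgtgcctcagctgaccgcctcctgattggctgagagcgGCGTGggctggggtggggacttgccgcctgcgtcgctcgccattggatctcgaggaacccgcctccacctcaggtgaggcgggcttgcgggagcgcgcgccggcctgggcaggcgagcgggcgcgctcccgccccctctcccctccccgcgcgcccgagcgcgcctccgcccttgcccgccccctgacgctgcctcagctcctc
BNIP3 promoter, chr10:131981924-131982173, minus strand: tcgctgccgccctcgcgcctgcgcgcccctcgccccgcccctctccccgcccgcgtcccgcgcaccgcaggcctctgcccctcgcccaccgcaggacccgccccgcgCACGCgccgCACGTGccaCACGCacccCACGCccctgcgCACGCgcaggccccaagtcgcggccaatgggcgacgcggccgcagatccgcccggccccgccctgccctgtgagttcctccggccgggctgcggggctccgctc
EGLN3 promoter, chr14:33951075-33951324, minus strand: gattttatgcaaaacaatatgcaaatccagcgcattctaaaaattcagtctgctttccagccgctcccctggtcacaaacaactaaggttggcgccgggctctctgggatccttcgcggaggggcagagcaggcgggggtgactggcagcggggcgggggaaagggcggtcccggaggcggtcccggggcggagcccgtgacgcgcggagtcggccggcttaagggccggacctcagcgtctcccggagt
CA12 promoter, chr15:63381847-63382096, minus strand: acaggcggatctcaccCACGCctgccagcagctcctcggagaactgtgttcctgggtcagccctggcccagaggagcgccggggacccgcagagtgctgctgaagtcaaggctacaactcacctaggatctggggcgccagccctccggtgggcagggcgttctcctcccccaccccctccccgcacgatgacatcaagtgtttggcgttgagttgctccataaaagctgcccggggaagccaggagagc
At least 1 core match was found in 43.2% of all 35116 promoter windows of this length. The BNIP3 window held 6 matches, of which 2 are the strands of a single CACGTG palindrome, and 6 or more were present in 0.646% of windows. The HIF1A and CA12 windows shown held 1 match each and the EGLN3 window none. HIF1A had a second window in the table, chr14:61697462-61697711 on the plus strand, which held no match. Of the 7 genes with a row and a window in the table, 5 had a match in at least 1 window. The androgen receptor half-site AGAACA, searched on both strands, was present in 12.4% of all windows and in none of the 9 windows held for these genes. Sites outside these 250 bases were not searched.

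HIF1A, the widely expressed alpha subunit, is a gene of 15 exons on chromosome 14, 61695513 to 61748259, plus strand (GRCh38, GENCODE v44), and was the lowest of the 3 HIF subunit genes in fold change. With R1881 the values ranged from 252 to 311 CPM (median 286). With R1881 + enzalutamide they were 162, 141, 159, 168 and 154 CPM in replicates 1 to 5. All 5 lay below the R1881 range, and the median decreased by 44.4%. The log2 fold change was -0.86 ± 0.051 (SE, adjusted p = 4.23e-12, limma). The R1881 libraries themselves fell into separate ranges by number, 289 to 311 CPM in libraries 51 to 55 and 252 to 283 CPM in libraries 71 to 75, and the fold change was -0.94 against the former and -0.78 against the latter. HIF1A transcripts have a GC content of 39.3%, at or above that of only 7.57% of genes, and with the trend on GC content removed the fold change of HIF1A was -0.82.

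EPAS1 encodes the other oxygen-regulated alpha subunit and lies on chromosome 2 from 46293667 to 46386697. It was expressed at 3.06 to 3.97 CPM with R1881 (median 3.46) and at 2.98, 2.88, 2.18, 2.43 and 3.22 CPM in R1881 + enzalutamide replicates 1 to 5. Replicate 5 lay within the R1881 range and the other 4 below it. Between 48 and 90 reads per library supported these values. The log2 fold change was -0.32 ± 0.087 (SE, adjusted p = 0.00326, limma). An absolute GC trend under 0.3 was found in 7 libraries, 5 with R1881 and only 2 with R1881 + enzalutamide. In these the value for EPAS1 was -0.30 with an adjusted p of 0.0826 from limma. The call did not hold there, though the fold change was similar and fewer libraries were used.

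ARNT, the beta subunit that pairs with either alpha subunit, is on chromosome 1, 150809713 to 150876708, minus strand, and moved in the other direction. It ranged from 55.0 to 66.7 CPM with R1881 (median 63.9) and was 83.6, 82.7, 81.0, 86.5 and 83.9 CPM in R1881 + enzalutamide replicates 1 to 5. The groups did not overlap, and the log2 fold change was 0.41 ± 0.042 (SE, adjusted p = 3.22e-08, limma). Its paralog ARNT2 rose as well, with 22.5 ± 1.42 CPM (SD) under R1881 and 33.7 ± 1.59 under enzalutamide, 0.57 on the log2 scale. The third alpha subunit gene, HIF3A, had no row.

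The balance of the alpha subunits was compared within each library as a log2 ratio of CPM + 0.5. Because EPAS1 was low, the difference depended somewhat on the pseudocount and was 0.50 with 0.1 and 0.58 with 1. The log2 ratio of EPAS1 to HIF1A averaged -6.15 ± 0.124 (SD, n = 10) under R1881 and increased by 0.54 to -5.61 ± 0.245 (SD, n = 5) under enzalutamide (exact permutation of the treatment labels, two-sided, p = 0.000999, 0.000999 after adjustment over 3 ratios). HIF1A therefore fell by more than EPAS1, while remaining the far more abundant transcript in every library. The ranges met, since the highest R1881 library had -5.84 and the lowest R1881 + enzalutamide library -5.89.

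VHL encodes the substrate-binding subunit of the ligase that destroys hydroxylated HIF, and lies on chromosome 3 from 10141778 to 10153667. It ranged from 85.3 to 100.4 CPM with R1881 (median 92.6) and was 112, 96.8, 106, 111 and 107 CPM in R1881 + enzalutamide replicates 1 to 5. Replicate 2 lay within the R1881 range and the others above it. The log2 fold change of VHL was 0.19 ± 0.042 (SE, adjusted p = 0.000581, limma), and it was 0.14 against the R1881 libraries 51 to 55 and 0.23 against the R1881 libraries 71 to 75.

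EGLN1, on chromosome 1, 231363751 to 231422287, minus strand, encodes PHD2, the main HIF prolyl hydroxylase at normal oxygen. It ranged from 46.2 to 56.0 CPM with R1881 (median 51.5) and was 57.7, 50.9, 55.3, 60.7 and 59.1 CPM in R1881 + enzalutamide replicates 1 to 5, so that 2 of the 5 lay within the R1881 range. The log2 fold change was 0.15 ± 0.047 (SE, adjusted p = 0.0109, limma). Against the R1881 libraries 51 to 55 alone the value for EGLN1 was 0.10 and did not pass the threshold (adjusted p = 0.104 from limma).

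EGLN3 encodes PHD3, a prolyl hydroxylase that is itself a HIF target, and rose more than any other of the 9 genes. With R1881 it ranged from 5.45 to 7.85 CPM (median 6.19). With R1881 + enzalutamide it was 16.4, 17.1, 15.9, 15.9 and 18.0 CPM in replicates 1 to 5. The groups were far apart, and the median of EGLN3 increased by 166%, with a log2 fold change of 1.31 ± 0.079 (SE, adjusted p = 5.88e-12, limma). Between 90 and 178 reads per library supported the R1881 values and between 350 and 458 the others. The gene lies on the minus strand of chromosome 14 with annotated bounds of 33924227 to 34462774, within which SPTSSA lies on the same strand and the noncoding EGLN3-AS1 on the opposite strand. No source used here says if reads were assigned by strand, so these could share reads with EGLN3.

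The log2 ratio of EGLN3 to EGLN1 averaged -2.90 ± 0.131 (SD, n = 10) under R1881 and -1.74 ± 0.131 (SD, n = 5) under enzalutamide. The difference was 1.17 (two-sided exact permutation test, p = 0.000333, the smallest that this design can give, 0.0005 after adjustment over 3 ratios). The groups did not overlap.

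**Figure D2:**
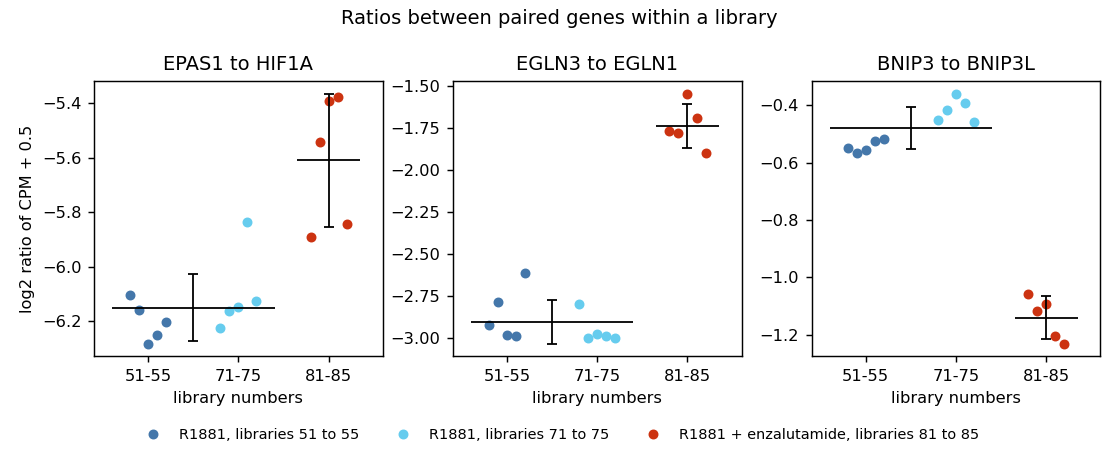
Log2 ratio of CPM + 0.5 (vertical axes, which do not start at 0) between paired genes within every library, grouped by library number. Horizontal lines are group means and vertical bars ± 1 SD. The R1881 + enzalutamide libraries lie above all R1881 libraries for EGLN3 to EGLN1 and below all of them for BNIP3 to BNIP3L, while for EPAS1 to HIF1A the ranges meet between -5.89 and -5.84.

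Of the 3 measured target genes, VEGFA and BNIP3 fell and CA12 rose. VEGFA encodes the main growth factor for blood vessels and lies on chromosome 6 from 43770184 to 43786487. It ranged from 115 to 140 CPM with R1881 (median 129) and was 67.0, 70.0, 68.6, 69.9 and 65.2 CPM in R1881 + enzalutamide replicates 1 to 5. The groups did not overlap and the median of VEGFA decreased by 46.7%. The log2 fold change was -0.91 ± 0.043 (SE, adjusted p = 1.06e-13, limma). The order of the R1881 libraries was opposite to that of HIF1A, with VEGFA at 115 to 127 CPM in libraries 51 to 55 and at 131 to 140 CPM in libraries 71 to 75. The log2 fold change of VEGFA was -0.83 against the former and -0.98 against the latter, and -0.83 with the GC trend removed.

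CA12 encodes a carbonic anhydrase of the cell surface that helps to control pH, and is on chromosome 15, 63321378 to 63381846, minus strand. It ranged from 46.05 to 50.6 CPM with R1881 (median 48.2) and was 69.3, 71.4, 67.0, 74.1 and 68.5 CPM in R1881 + enzalutamide replicates 1 to 5. The groups did not overlap, and the log2 fold change of 0.53 ± 0.035 (SE, adjusted p = 2.83e-11, limma) was the same to this precision against either R1881 series. The other transmembrane enzymes of this kind in the list, CA9 and CA14, had no row.

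BNIP3, a receptor on the mitochondrial surface that directs mitochondria to autophagy, is on chromosome 10, 131967684 to 131981967, minus strand. It ranged from 185 to 204 CPM with R1881 (median 194) and was 145, 131, 143, 139 and 136 CPM in R1881 + enzalutamide replicates 1 to 5. The groups did not overlap, and the log2 fold change was -0.48 ± 0.030 (SE, adjusted p = 1.24e-11, limma). These values are uncertain in level, because the processed pseudogene BNIP3P1 on chromosome 14, chosen after its values were seen, had a row of its own of 92.4 ± 3.92 CPM (SD) under R1881 and 65.3 ± 2.69 CPM under enzalutamide. The ratio of BNIP3 to BNIP3P1 stayed between 2.03 and 2.20 over all 15 libraries. With the rows of BNIP3 and BNIP3P1 summed the log2 fold change was -0.49, and with the GC trend removed that of BNIP3 was -0.41.

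BNIP3L encodes the paralogous receptor NIX and did not fall with BNIP3. Its 272 ± 18.7 CPM (SD, n = 10) under R1881 became 307 ± 18.2 CPM (SD, n = 5) under enzalutamide, a rise of 0.18 on the log2 scale (adjusted p = 0.00328, limma) with ranges that overlapped. The log2 ratio of BNIP3 to BNIP3L averaged -0.48 ± 0.074 (SD, n = 10) under R1881 and -1.14 ± 0.074 (SD, n = 5) under enzalutamide. The difference was -0.66 (two-sided exact permutation test, p = 0.000333, 0.0005 after adjustment over 3 ratios), and the groups did not overlap.

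**Figure D3:**
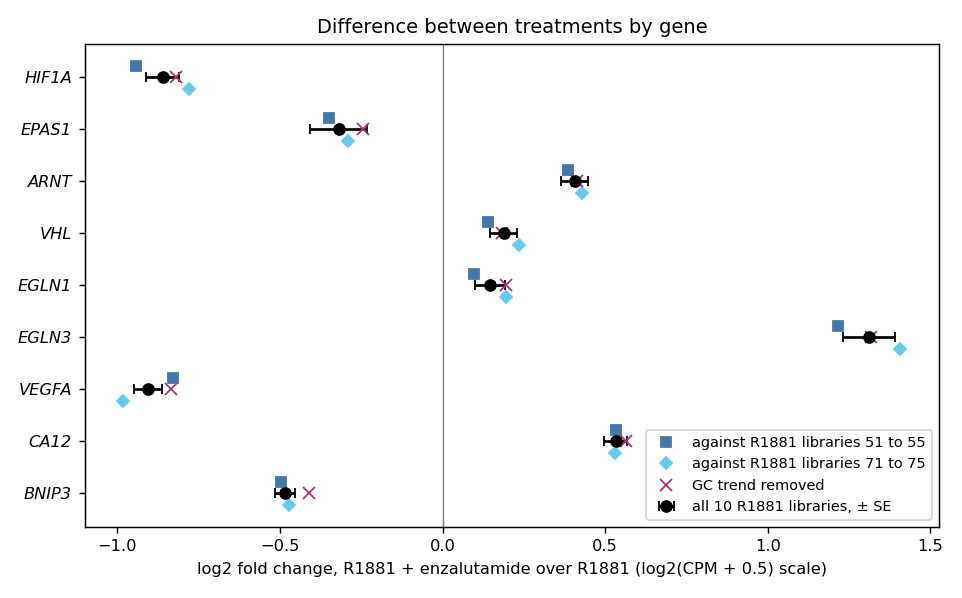
Log2 fold change of R1881 + enzalutamide over R1881 on the log2(CPM + 0.5) scale (horizontal axis) for each of the 9 genes. Black points with bars are the values against all R1881 libraries ± the standard error, squares and diamonds those against the R1881 libraries 51 to 55 and 71 to 75 alone, and crosses those with the trend on GC content removed. No gene changes sign between these settings, and EGLN3 stands highest at 1.31 and VEGFA lowest at -0.91.

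To compare the level of different genes, CPM was divided by the length of the merged exons of each gene in kilobases. Merged exons cover all annotated transcripts of a gene and can be longer than any 1 of them. For VEGFA they came to 14.4 kilobases, the longest of the 9, which lowers its value per kilobase. The order of the genes therefore depends on the annotation. With R1881, HIF1A was highest at 55.4 ± 4.04 CPM per kilobase (SD, n = 10), followed by BNIP3 at 47.99 ± 1.23, with ranges that overlapped. VHL followed at 18.7 ± 0.935 CPM per kilobase, and ARNT at 9.76, EGLN1 at 9.52 and VEGFA at 8.89 CPM per kilobase overlapped from each to the next. CA12 at 6.90, EGLN3 at 0.876 and EPAS1 at 0.483 CPM per kilobase were each apart from the next gene. With R1881 + enzalutamide the order changed at 2 places. BNIP3 at 34.3 ± 1.35 CPM per kilobase (SD, n = 5) and HIF1A at 30.4 ± 1.90 still overlapped, and CA12 at 10.0 CPM per kilobase passed VEGFA at 4.72. Before division by length, VEGFA had a mean of 128 CPM and CA12 of 48.3 CPM with R1881. With R1881 + enzalutamide these means were 68.1 and 70.1 CPM, with ranges that overlapped. EGLN3 at 2.26 and EPAS1 at 0.375 CPM per kilobase remained the lowest of the 9.

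Beyond these genes, 69 further genes of the pathway were listed by role. Of these, 54 had a row and 53 passed the filter of a mean of at least 0.5 CPM. In total 12 were higher and 30 lower with enzalutamide, and 11 did not pass the threshold, with a median log2 fold change of -0.19 beside -0.01 over all genes tested. Over all genes tested, 29.8% were higher and 32.7% lower, and the counts of the short lists below, of which several hold fewer than 5 genes, are given as descriptions beside these shares. The upstream parts of the pathway moved in both directions. Of the 3 other hydroxylases, P4HTM, a hydroxylase of the endoplasmic reticulum, rose (log2 fold change 0.39), EGLN2, which encodes PHD1, fell (-0.48, from 3.97 ± 0.581 to 2.68 ± 0.236 CPM, SD), and HIF1AN, the asparaginyl hydroxylase FIH, had -0.02 and did not pass. Of the 4 partners of VHL in its ligase, 3 fell and none rose, where 62.5% of all genes were called in either direction. RBX1, the RING subunit, had a log2 fold change of -0.43 and ELOC, listed in the file as TCEB1, of -0.33. Of 7 HIF modulators, 3 rose, 3 fell and 1 did not pass, again beside 62.5% of all genes called. Among them SIAH2 and SIAH1, ubiquitin ligases that act on the EGLN hydroxylases, moved apart, with -0.52 for SIAH2 (33.2 ± 1.88 to 23.0 ± 1.06 CPM, SD) and 0.33 for SIAH1 (28.2 ± 1.77 to 35.5 ± 1.90 CPM).

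The partners of the secreted and surface targets were sparsely covered. Of 7 VEGF ligands and receptors only VEGFB and NRP1 had a row, and NRP1, a co-receptor, fell by 0.22 on the log2 scale (559 ± 27.4 to 479 ± 26.3 CPM, SD) with ranges that overlapped. In the adrenomedullin system CALCRL, the receptor shared by adrenomedullin and related peptides, rose by 0.86 on the log2 scale at low level (17 to 47 reads per library with R1881 and 65 to 83 with R1881 + enzalutamide), and ADM2, a related peptide, fell by 0.78 (32.8 ± 4.98 to 18.9 ± 2.44 CPM, SD). RAMP1, which pairs with CALCRL, had -0.04 and did not pass, and the other listed partners RAMP2 and RAMP3 had no row. Of the pH regulators, the lactate exporter SLC16A3 fell (log2 fold change -0.43, with overlapping groups at under 3 CPM).

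**Figure D4:**
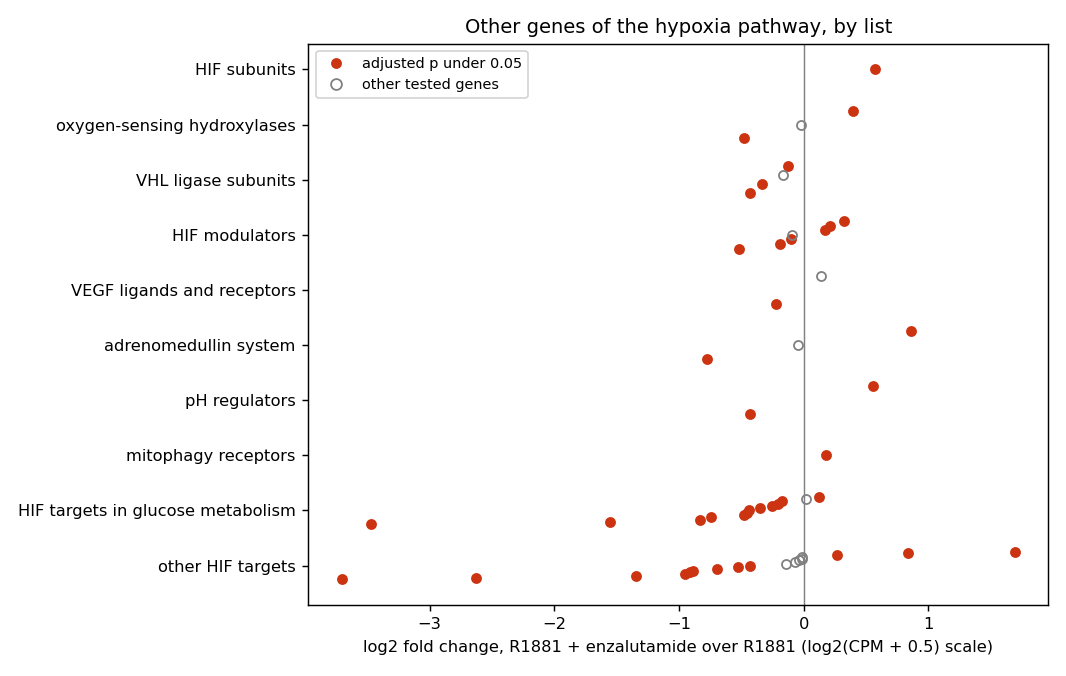
Log2 fold change of R1881 + enzalutamide over R1881 on the log2(CPM + 0.5) scale (horizontal axis) for the 53 tested pathway genes other than the 9, with a row for each list. Filled points passed an adjusted p of 0.05 from limma and open points did not. In the lists of HIF targets 20 filled points lie below 0 and 4 above.

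The listed HIF targets, not counting EGLN3, VEGFA, CA12 and BNIP3, were mostly lower. Of 30 tested, 20 fell, 4 rose and 6 did not pass, with a median log2 fold change of -0.44. Over all genes tested, 32.7% fell and 29.8% rose. The lists were chosen with earlier results of these data known, so these counts are a description and not a test. In glucose metabolism 11 of 13 fell, 1 rose and 1 did not pass. HK2, which commits glucose to glycolysis, had 51.9 ± 2.58 CPM (SD) under R1881 and 17.4 ± 0.466 CPM under enzalutamide (log2 fold change -1.55). LDHA, which makes lactate, had 759 ± 27.8 and 426 ± 15.1 CPM (log2 fold change -0.83). The glucose transporter gene SLC2A3 was reduced to the limit of detection, with 74 to 157 reads per library with R1881 and 0 to 3 with R1881 + enzalutamide, and its log2 fold change of -3.47 depends on the method (-5.23 with a pseudocount of 0.1 and -2.66 with 1, and -6.36 with edgeR and -6.52 with DESeq2 on the recovered reads). Several of these enzymes have processed pseudogenes, so their counts may have been split between rows.

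Among the other HIF targets tested, 9 of 17 fell, 3 rose and 5 did not pass, beside 32.7% of all genes lower, 29.8% higher and 62.5% called in either direction. NDRG1, a stress-induced gene that is also known to respond to androgens, had 766 ± 37.0 CPM (SD) under R1881 and 58.4 ± 3.81 CPM under enzalutamide, and its log2 fold change was -3.70 ± 0.041 (SE, adjusted p = 3.76e-24, limma). ANKRD37 (19.5 ± 1.03 and 2.78 ± 0.525 CPM) and the transcriptional repressor BHLHE40 (12.6 ± 0.730 and 6.48 ± 0.524 CPM) fell by 2.63 and 0.91 on the log2 scale. INSIG2, which holds back sterol synthesis, had 23.3 ± 1.46 and 76.4 ± 4.52 CPM (log2 fold change 1.69), and MXI1, an antagonist of MYC, had 47.1 ± 2.82 and 84.5 ± 3.18 CPM (0.84). EGLN3 and CA12 thus stood with the 4 targets that rose, and VEGFA and BNIP3 with the 20 that fell. EPO and ANGPTL4 had no row.

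Finally, the genes whose log2(CPM + 0.5) followed that of HIF1A, EGLN3, VEGFA and CA12 most closely were sought among 12164 genes with a mean of at least 5 CPM. These are descriptions over all 15 libraries, in which the difference between treatments dominates, and the value over the 10 R1881 libraries is given beside each. For HIF1A they were HACD2 (Pearson's r 0.998 over 15 libraries and 0.977 over 10), PDS5B (0.998 and 0.984) and MARCH5 (0.998 and 0.958). For VEGFA they were KLK3 (0.995 and 0.898), KLK2 (0.995 and 0.901) and MLX (0.993 and 0.899), and KLK3 and KLK2, like VEGFA, were higher in the R1881 libraries 71 to 75 than in all of 51 to 55. For EGLN3 they were IKZF2 (0.991 and 0.879), FRAS1 (0.990 and 0.817) and TGFA (0.989 and 0.827). For CA12 they were HOXC13 (0.992 and 0.716), VGLL4 (0.991 and 0.830) and DAPK1 (0.989 and 0.467), so that within the R1881 group CA12 and DAPK1 followed each other less closely. Libraries share depth and the trend on GC content, whose part in these values was not tested.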

How the data were processed

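Polyadenylated RNA of LNCaP cells was prepared with a stranded kit and sequenced as single-end reads of 10 R1881 and 5 R1881 + enzalutamide libraries, as the labels group them. In the methods text the 2 group sizes are exchanged. The authors demultiplexed with bcl2fastq 2.17, mapped with STAR to GRCh38, counted with featureCounts, and the deposited values are a normalized signal for each gene, termed CPM in the methods. No source used here gives the gene annotation, strand setting, gene filter or scaling rule. Column sums ranged from 1053406 to 1078567 in the R1881 group and from 985580 to 1008992 in the R1881 + enzalutamide group, without overlap. The deposited scale thus differed between the treatments, which matters most for small fold changes. Dividing by the value of 1 read gave whole reads (within 0.01) for 100% of values. No 2 libraries of a group were alike within sampling noise (55 pairs, lowest chi-square over its degrees of freedom 1.63), and each was kept as 1 replicate. Precision for low genes is limited by counting error.

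Differences were tested with limma 3.58.1 in R 4.3.3 (log2(CPM + 0.5) with a variance trend, genes with a mean of 0.5 CPM or more, no covariate, Benjamini-Hochberg adjusted p under 0.05), so that fold changes understate those of genes with few reads. The design had been set for CPM, and the deposited signal was tested on that scale, and the recovered reads were tested with DESeq2 1.42.0 and by quasi-likelihood with edgeR 4.0.16 as alternatives. Ratios were compared by two-sided exact permutation. The fit and the permutation test were tested on simulated data. Other alternatives changed the pseudocount (0.1 and 1), filter, scaling, replicate block, R1881 series and each library in turn. The removal of the GC trend (spline with 5 degrees of freedom, 80.8% of genes with a value), the 7 libraries with a weak GC trend, the summing of BNIP3 with BNIP3P1 and the title block's libraries without the block were added after the data were seen.

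The genes and lists were chosen with earlier results of these data known. Named are the 9 genes, the androgen-induced check genes, in each list at most 3 genes per direction with a mean of at least 1 CPM and an absolute log2 fold change of at least 0.3, and 3 genes of similar pattern for each of the 9 with an absolute log2 fold change of at least 0.5. HIF1AN, NRP1, VEGFB, RAMP1, BNIP3L and the genes without a row are named outside this rule. A few genes chosen in this way are not reported here. Gene positions are from GENCODE v44, whereas the promoter windows follow RefSeq starts. For BNIP3 and EGLN3 the GENCODE bounds extend into or beyond the window shown.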

Additional observations from a re-analysis of the deposited data

Results flagged for a closer look

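In R1881 replicate 5 the log2 ratio of EPAS1 to HIF1A was -5.84, apart from the other R1881 libraries, of which the nearest had -6.11. Over 24 groups of 5 or 10 libraries examined (9 genes and 3 ratios), this was the 1 library far from the others, where chance gives about 1.2. Without this library the difference between treatments in the ratio was 0.58 (two-sided exact permutation test, p = 0.0005).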

How the results depend on the processing

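Over 31 alternatives, 277 of 279 fold changes of the 9 genes kept their direction and their side of the threshold and none reversed. EGLN1 lost its call against the R1881 libraries 51 to 55 alone but kept it against 71 to 75 alone, both with fewer libraries. EPAS1 lost its call in the 7 libraries with a weak GC trend, of which 2 were from the R1881 + enzalutamide group. The cause was not tested. All 774 values of the 25 other named genes tested again kept theirs. With a change of at least 2-fold required as well, 1270 genes and 1 of the 9 genes were called. With each library left out in turn, between 10071 and 10877 genes, all 9 genes, and between 39 and 43 pathway genes were called. The difference in the log2 ratio then stayed between 0.48 and 0.61 for EPAS1 to HIF1A, between 1.12 and 1.21 for EGLN3 to EGLN1 and between -0.68 and -0.64 for BNIP3 to BNIP3L. With library totals set to 1000000, 6629 genes were higher and 4288 lower, in place of 5083 and 5577. That scaling moved the median of all genes from -0.01 to 0.07, and EGLN1 then had 0.24.

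Libraries that share a replicate number in the titles did not deviate together (correlation of deviations from -0.07 to 0.07 over 5 pairs), and the last digits of the library numbers did not pair them throughout (from -0.42 to 0.67 over 10 pairs). With a replicate block on the title numbers 10117 genes, all 9 genes and 41 pathway genes were called, beside 10333, 9 and 41 in the same 10 libraries without the block. With a block on the last digit 10720 genes, all 9 genes and 42 pathway genes were called.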
